A study of Mus musculus with 28 samples.

Results

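Transcripts of 10 genes of hepcidin control and liver iron handling were followed across all 7 groups of a mouse liver array series: the hormones Hamp and Hamp2, the receptors Tfr2, Hfe and Tfrc, the ligand Bmp6 and its target Id1, the carrier Trf, the storage subunit Fth1 and the exporter Slc40a1. Each was found by matching the accession that the array design gives for a probe to a RefSeq symbol, which returned 12 probes, 1 per gene except for Bmp6 and Id1. They were 10 of 20303 features tested. Liver RNA of 28 samples was hybridised to single-colour arrays, 4 per group. All 7 groups were Fah-/-, and there was no group with an intact Fah gene. Fah encodes fumarylacetoacetate hydrolase, which completes the breakdown of tyrosine. Toxic tyrosine metabolites build up in such mice unless they receive NTBC (nitisinone), a drug that blocks an earlier step of the same pathway.

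The groups were Fah-/- p21-/- mice without NTBC, Fah-/- p53-/- mice with no, reduced or full NTBC, and Fah-/- mice with no, reduced or full NTBC. Full NTBC was 7.5 mg/L in drinking water. The reduced dose is given as 25% in the labels of the samples and as 2.5% for 3 months in the treatment note, and it is called reduced throughout. Age, strain and the length of time without NTBC are not given in the sources used here, nor do the labels say whether replicates were different mice, so p-values measure the spread between these samples. Transcripts that mark sex read as male on every array except the 4 of Fah-/- p53-/- livers without NTBC and 2 of the 4 of Fah-/- p21-/- livers (replicates 1 and 2), which read as female.

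Hepcidin is a peptide hormone that the liver secretes to hold iron back. It binds ferroportin, the exporter encoded by Slc40a1, and causes its breakdown in gut cells and macrophages, so that less iron enters plasma. Hepatocytes make it when BMP6 from liver endothelial cells signals through SMAD proteins (Id1 is a gene induced in parallel), when holo-transferrin engages the sensors TFR2 and HFE, and when interleukin-6 acts through STAT3. Transcripts of Tfrc carry iron-responsive elements that stabilise them when cell iron is low.

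Mice carry a pair of hepcidin genes, Hamp and Hamp2, that lie near each other on chromosome 7. In mice the peptide of Hamp is the one known to lower plasma iron, whereas that of Hamp2 has not been found to do so. Their promoters are shown side by side as a description, and whether they bear on the levels of the transcripts was not tested. Over the 300 bases around the start site in the RefSeq tables (build GRCm38.p6), 276 of 297 aligned bases were the same, or 92.9%. The stretches below run from position -150 to -1 on the minus strand, with the BMP response element core and the STAT site of Hamp, and the aligned bases of Hamp2, in capitals.
Hamp, chr7:30944030-30944179: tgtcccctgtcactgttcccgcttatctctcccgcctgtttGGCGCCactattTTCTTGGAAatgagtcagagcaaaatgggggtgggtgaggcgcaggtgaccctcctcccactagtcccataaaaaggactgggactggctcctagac
Hamp2, chr7:30924182-30924331: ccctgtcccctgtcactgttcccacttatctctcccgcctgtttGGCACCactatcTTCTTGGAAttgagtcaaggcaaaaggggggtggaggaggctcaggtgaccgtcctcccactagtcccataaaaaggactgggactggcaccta
The hexamer GGCGCC of Hamp starts at -109. The aligned bases of Hamp2, which start at -106, carry the substitution G4A, counted from 1 at the 5′ end of the hexamer. The STAT match TTCTTGGAA is identical in both, at -97 in Hamp and -94 in Hamp2.

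Of the 10 genes, 7 had at least 1 promoter in the RefSeq table, and these had 11 promoters of 300 bases. GGCGCC, searched on both strands, was found in 2 of the 11 (Hamp and Tfrc) and in 11.9% of all 32851 promoters of that length. The STAT pattern TTCNNNGAA was found in 2 (Hamp and Hamp2) and in 8.3% of all. The core of the antioxidant response element, TGACNNNGC, was found in 2 (Bmp6 and Hfe) and in 12.4% of all. The p53 half-site consensus was found in 0 of the 11 and in 8.36% of all. These matches describe letters in a window and say nothing of binding.

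Levels below are log2 signal relative to the 75th percentile of the same array, so a difference of 1 is a 2-fold change. All probes of the 10 genes that stood for a gene were well above background on 28 of 28 arrays, and none was saturated. Differences come from 1 limma fit across all 28 arrays and 20303 features, and a gene was called when its Benjamini-Hochberg adjusted p was under 0.05. By the scan dates in the file headers, the 3 NTBC doses were scanned in 3 different years. The effect of dose thus cannot be told apart from that of the scan year. With full and with reduced NTBC each genotype also lay on a slide of its own, whereas the groups without NTBC shared slides in pairs. In Fah-/- p53-/- livers the arrays without NTBC read as female and those with NTBC as male. The effect of no NTBC in that genotype therefore cannot be told apart from that of sex either. All 9 hepatocyte markers on the array were above background on every array of liver. The probes for Trp53 and Cdkn1a did not check the genotype labels, because their place relative to the deleted parts was not analysed here: Trp53 averaged 1.22 with full NTBC on arrays labelled Fah-/- p53-/- and 1.41 on arrays labelled Fah-/-, and Cdkn1a averaged 3.24 on arrays labelled Fah-/- p21-/- and 4.28 on arrays labelled Fah-/-, both without NTBC. The Fah probe read above background in all 7 groups, which share the deletion.

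Hamp2 had the largest change of the 10 genes, and it was lower without NTBC in both genotypes. In Fah-/- livers it read -1.97, -1.80, -1.73 and -1.64 without NTBC, 3.74, 4.52, 5.13 and 5.05 with reduced NTBC and 3.25, 4.28, 4.97 and 5.0 with full NTBC. The 4 arrays without NTBC lay far below all others of that genotype, while the arrays with reduced and with full NTBC covered the same range. The difference without against with full NTBC was -6.16 ± 0.60 (SE), a 71.5-fold decrease (adjusted p = 3.7e-09), and 84.1-fold below that with reduced NTBC. Reduced against full NTBC differed by 0.23, which was not called (adjusted p = 0.79).

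In Fah-/- p53-/- livers Hamp2 read -2.13, 0.79, 0.88 and 0.66 without NTBC, 7.90, 7.08, 7.75 and 7.06 with reduced NTBC and 7.81, 8.86, 9.01 and 9.20 with full NTBC. The group without NTBC again lay apart from both others, with 1 array well below the other 3. The fall without NTBC was 409-fold against full NTBC (adjusted p = 1.2e-11) and 169-fold against reduced NTBC. There the arrays without NTBC were female and those with NTBC male. Reduced NTBC left Hamp2 at -1.27 relative to full NTBC, which did not pass (adjusted p = 0.0948). The response to withdrawal was larger in Fah-/- p53-/- than in Fah-/- livers by -2.51 ± 0.85 (SE), a difference that did not pass in this fit (adjusted p = 0.0638). It passed in 3 of 28 alternative settings. These were without replicate 1 of the Fah-/- p53-/- group with full NTBC (-2.82, adjusted p = 0.0473), in the deposited values (-2.71, adjusted p = 0.0147) and with a block for replicate number. With a term for sex it was farthest from passing (limma, adjusted p = 0.236).

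With NTBC, Hamp2 was far higher in livers that also lacked p53. With full NTBC the 4 Fah-/- p53-/- arrays, at 7.81 to 9.20, all lay above the 4 Fah-/- arrays, at 3.25 to 5.0, a difference of 4.35 or 20.3-fold (adjusted p = 2.08e-05). With reduced NTBC the difference was 2.84 or 7.15-fold (adjusted p = 0.00242), again with no overlap. Under the other 3 scalings the difference was 3.84 to 4.12 with full NTBC and 2.85 to 2.96 with reduced NTBC. The genotypes differ in slide at both doses, and strain is not given, so neither can be told apart from p53 loss here.

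Without NTBC the genotypes differed less clearly. Hamp2 was 1.83 higher in Fah-/- p53-/- livers than in Fah-/- livers (adjusted p = 0.043), but the groups overlapped, since replicate 1 of the Fah-/- p53-/- group read -2.13. That call was lost with a term for sex (adjusted p = 0.586), with slide as a fixed block (adjusted p = 0.286) and between arrays of the shared slide (adjusted p = 0.396). It was also lost without any 1 of the 4 Fah-/- arrays or any of the other 3 Fah-/- p53-/- arrays (adjusted p = 0.0726 to 0.126). In Fah-/- p21-/- livers Hamp2 read -1.26, 1.19, -1.41 and 0.71, against -1.97 to -1.64 in Fah-/- livers. The 4 arrays were all higher than the 4 of Fah-/- livers, but the difference of 1.59 was not called (adjusted p = 0.109). The female pair read -1.26 and 1.19 and the male pair -1.41 and 0.71, so each sex held 1 array near the Fah-/- level and 1 well above it.

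**Figure D1:**
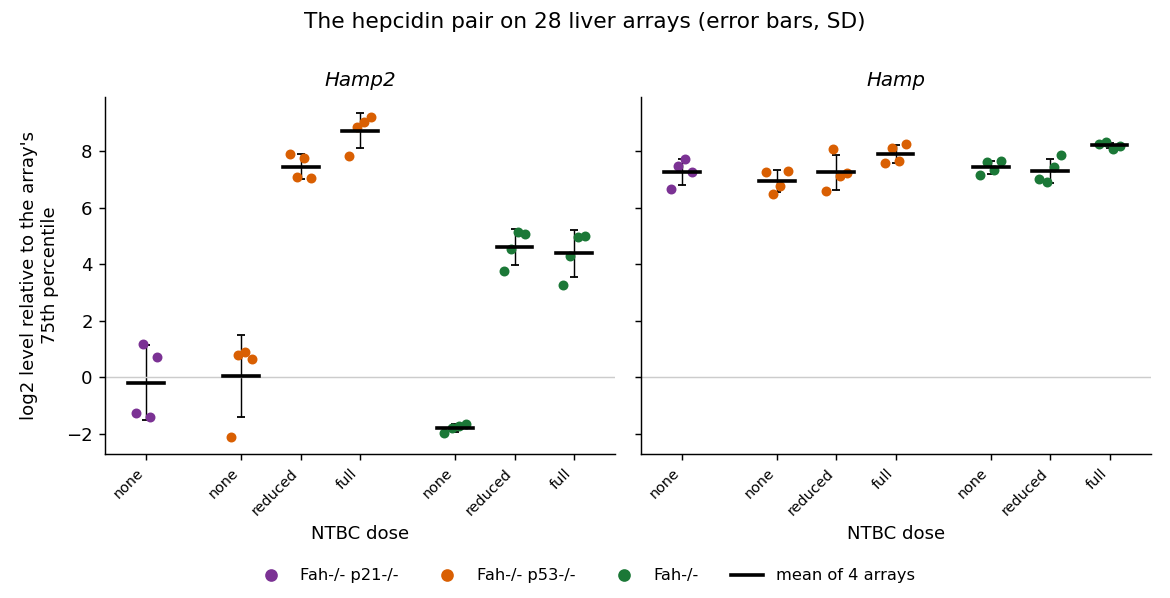
Level of Hamp2 (left) and Hamp (right) on each of the 28 arrays, as log2 signal relative to the array's 75th percentile, by genotype and NTBC dose. Hamp2 ran between -2.13 and 1.19 in the 3 groups without NTBC and between 3.25 and 9.20 in the others, whereas Hamp stayed between 6.48 and 8.31 and its difference without against with full NTBC, called lower here, turns to 0.28 and 0.01 (not called) under quantile scaling.

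Hamp stayed near the top of the arrays' range in every group. It read 7.15, 7.60, 7.32 and 7.64 in Fah-/- livers without NTBC, 7.02, 6.89, 7.44 and 7.85 with reduced NTBC, and 8.24, 8.31, 8.08 and 8.19 with full NTBC. Both lower doses lay below full NTBC without overlap, by -0.78 ± 0.27 (SE) without NTBC (adjusted p = 0.0137) and by -0.91 with reduced NTBC (adjusted p = 0.0104). Neither call held under any of the 3 other scalings, where the value with reduced NTBC was -0.77 under normexp (adjusted p = 0.225), -0.51 under quantile normalization (0.171) and -0.44 in the deposited values (0.271). The Fah-/- p53-/- arrays read 7.24, 6.48, 6.77 and 7.29 without NTBC, 6.57, 8.07, 7.11 and 7.21 with reduced NTBC, and 7.57, 8.10, 7.66 and 8.25 with full NTBC. Reduced NTBC differed from full NTBC by -0.65 (adjusted p = 0.0584), or by -0.93 without replicate 2 of the reduced group (adjusted p = 0.00719), but by 0.03 under normexp (0.952), -0.16 under quantile normalization (0.70) and 0.05 in the deposited values (0.92). The fall without NTBC was -0.95 (adjusted p = 0.00344), and -0.51 with a term for sex (adjusted p = 0.366). The 4 Fah-/- p21-/- arrays read 6.64, 7.47, 7.73 and 7.26, within the range spanned by the other groups. No neighbours in the order of the 7 group means were separate from each other.

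The fall of Hamp without NTBC depended on how arrays were put on one scale. Under quantile normalization it read 0.28 (adjusted p = 0.398) in Fah-/- and 0.01 (adjusted p = 0.975) in Fah-/- p53-/- livers without against with full NTBC, and in the deposited values 0.24 and 0.13. Under normexp it read -0.57 (adjusted p = 0.187) and -0.45 (adjusted p = 0.297). The 99th and 75th percentiles of all probes lay closer together without NTBC. The 99th lay 5.94 above the 75th in Fah-/- livers without NTBC and 6.84 above it with full NTBC (medians over arrays). In Fah-/- p53-/- livers it lay 5.95 and 6.77 above. The 75th percentile used for scaling was itself higher without NTBC. Before scaling it was 470.98 to 578.06 there and 270.75 to 350.8 with full NTBC in Fah-/- livers. The Fah-/- p53-/- arrays gave 455.65 to 494.49 and 251.8 to 296.14. Ranked among 41174 probes, with the brightest as 1, Hamp had a median rank of 100.5 without NTBC, 236 with reduced and 136.5 with full NTBC in Fah-/- livers, and of 160.5, 196 and 164 in Fah-/- p53-/- livers.

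The Hamp2 probe read -1.97 to -1.64 on the very arrays where the Hamp probe read 7.15 to 7.64, so the Hamp2 probe did not follow a strong Hamp signal there. Whether the Hamp probe takes up Hamp2 transcripts was not tested.

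Tfr2, the hepatocyte sensor of holo-transferrin that feeds into hepcidin control, fell stepwise as NTBC was lowered. In Fah-/- livers it read 2.63, 2.98, 3.26 and 3.17 without NTBC, 4.82, 5.13, 5.24 and 5.54 with reduced NTBC, and 6.22, 6.30, 6.13 and 6.29 with full NTBC. The Fah-/- p53-/- arrays read 3.51, 2.86, 2.82 and 2.87, then 5.0, 5.10, 5.04 and 4.86, then 6.32, 6.12, 6.0 and 6.13 at the same doses. The 3 doses were separate in both genotypes, and the 2 genotypes overlapped at each. Tfr2 fell 9.32-fold without NTBC in Fah-/- livers (-3.22 ± 0.18, SE, adjusted p = 4.92e-13) and 8.76-fold in Fah-/- p53-/- livers (adjusted p = 7.15e-13). With reduced NTBC it fell by 1.05 (adjusted p = 8.1e-05) and by 1.14 (adjusted p = 3.33e-05) in the same genotypes, of which the second did not pass under normexp background correction (-0.46, adjusted p = 0.149). The Fah-/- p21-/- arrays, at 2.80 to 3.78, overlapped both other groups without NTBC.

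Hfe, the partner of Tfr2 in iron sensing, changed little. Its group means lay between 2.67 and 3.14. It was called lower with reduced against full NTBC (-0.47, adjusted p = 0.00516 in Fah-/- and -0.37, adjusted p = 0.0219 in Fah-/- p53-/- livers) and without against with full NTBC (-0.35 and -0.33). These falls in Fah-/- p53-/- livers read 0.04 and 0.01 under normexp, and each of those calls was also lost without replicate 3 of the group with full NTBC (adjusted p = 0.101 and 0.114), the first also without replicate 1 or 3 of the reduced group (0.0572 and 0.0542) and the second without replicate 1 of the group without NTBC (0.0716). Under quantile normalization they read -0.21 (adjusted p = 0.173) and -0.11 (0.422), and the second was not called in the deposited values either (-0.19, adjusted p = 0.131). The Fah-/- call without NTBC was lost under normexp (-0.22, adjusted p = 0.269), quantile normalization (-0.06, 0.655) and in the deposited values (-0.17, 0.18), and without replicate 4 of that group (adjusted p = 0.081).

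Tfrc, the receptor through which cells import transferrin-bound iron, moved opposite to Tfr2. In Fah-/- livers it read 0.60, 1.17, 1.51 and 0.53 without NTBC, 0.13, 0.13, -0.27 and -0.45 with reduced NTBC, and -1.59, -1.24, -1.01 and -0.99 with full NTBC, with no overlap between doses. It rose 4.46-fold without NTBC (2.16 ± 0.30, SE, adjusted p = 1.2e-06) and by 1.09 with reduced NTBC (adjusted p = 0.00639, and 0.0775 under normexp). Among Fah-/- p53-/- livers it read 0.50, 0.73, 0.93 and 0.48 without NTBC, 1.26, 0.23, 0.92 and 0.19 with reduced NTBC, and -1.29, -0.85, 0.23 and -0.16 with full NTBC. There the rise was 2.27-fold without NTBC (adjusted p = 0.00146) and 1.17 on the log2 scale with reduced NTBC (adjusted p = 0.00388), and no and reduced NTBC differed by only 0.01 (adjusted p = 0.976). Whether the genotypes differed in this response did not reach the threshold (-0.98 without NTBC, adjusted p = 0.162). The Fah-/- p21-/- arrays read 0.70, 1.65, 1.45 and 1.80.

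**Figure D2:**
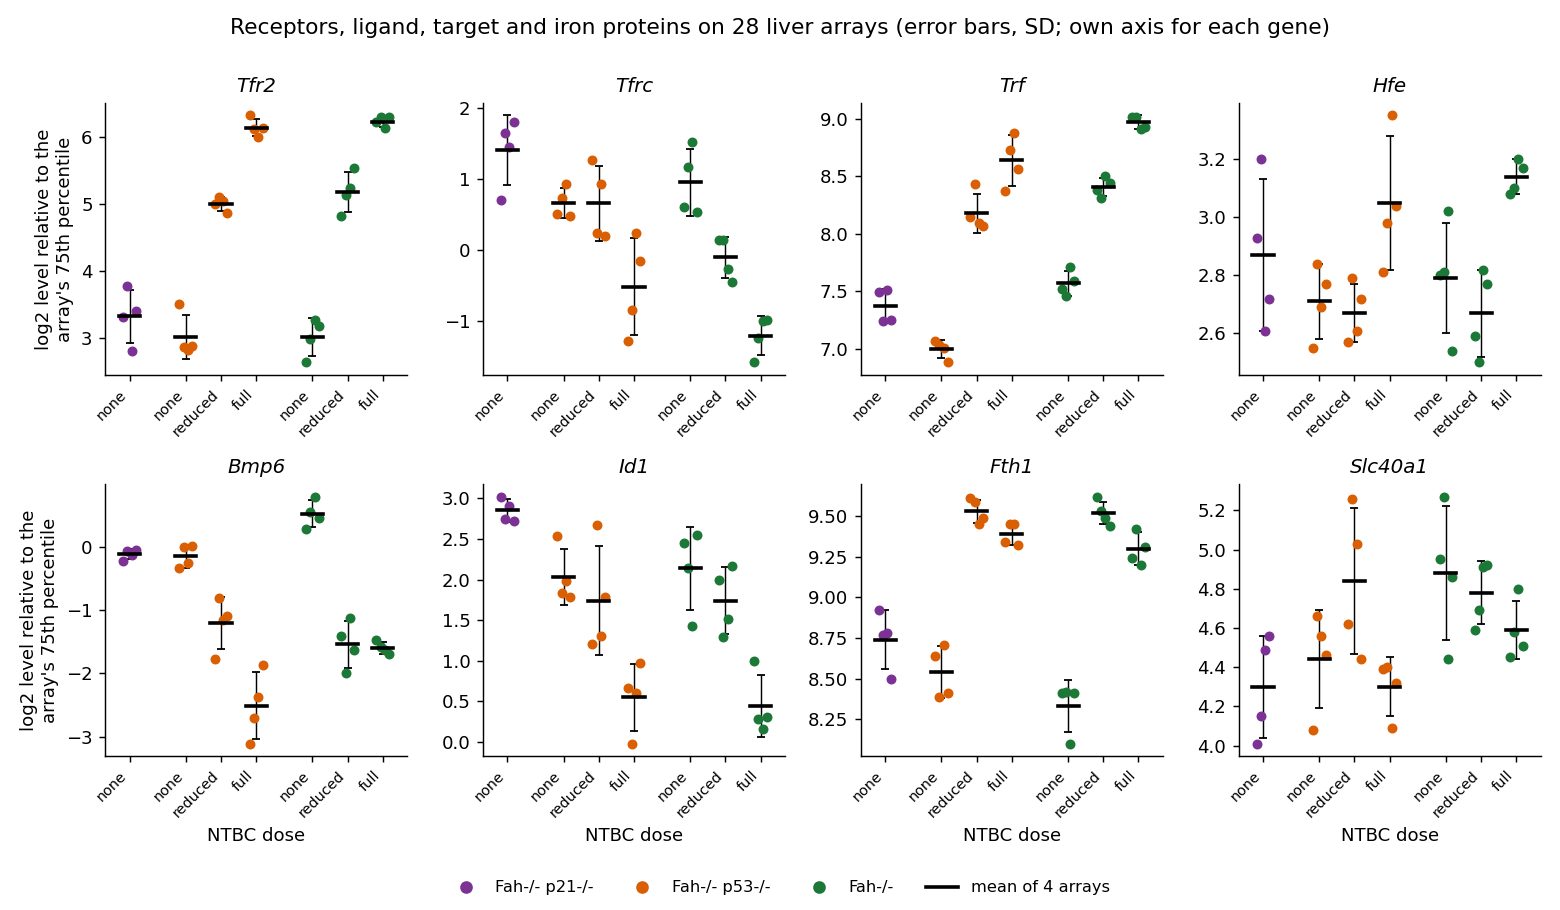
Level of the other 8 genes on each array, 1 panel per gene, as log2 signal relative to the array's 75th percentile, by genotype and NTBC dose. Tfr2 falls in steps without overlap between doses, and Bmp6 is highest without NTBC. Id1 is higher at both lower doses than with full NTBC, and no and reduced NTBC overlap. Fth1 and Trf are lower without NTBC on this scale, a direction that quantile scaling turns for Fth1.

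Bmp6, the main iron-dependent activator of hepcidin, rose without NTBC in both genotypes. Its levels in Fah-/- livers were 0.28, 0.55, 0.79 and 0.45 without NTBC, -1.41, -2.0, -1.13 and -1.63 with reduced NTBC, and -1.48, -1.59, -1.63 and -1.70 with full NTBC. Only the arrays without NTBC stood apart, at 4.33-fold above full NTBC (2.12 ± 0.21, SE, adjusted p = 6.64e-09), while reduced NTBC differed by 0.05 (adjusted p = 0.867), though with the mean of the gene's 2 probes it was called higher (0.59, adjusted p = 0.0291). The Fah-/- p53-/- livers gave -0.34, 0.00, -0.26 and 0.01 without NTBC, -1.78, -0.81, -1.16 and -1.09 with reduced NTBC, and -3.11, -2.70, -2.37 and -1.87 with full NTBC. Here the rise was 5.15-fold without NTBC (adjusted p = 1.01e-09) and 1.30 on the log2 scale with reduced NTBC (adjusted p = 4.77e-05), and the 3 doses did not overlap.

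The response of Bmp6 to reduced NTBC was larger in Fah-/- p53-/- than in Fah-/- livers by 1.25 ± 0.30 (SE, adjusted p = 0.0106). This rests on a lower level with full NTBC in Fah-/- p53-/- livers, -2.51 against -1.60 in Fah-/- livers (difference -0.91, adjusted p = 0.00543). Under normexp the rise with reduced NTBC in Fah-/- p53-/- livers read -0.06, the difference between genotypes with full NTBC read 0.10, and the difference in response read 0.07 (adjusted p = 0.88). With the mean of the 2 probes neither the difference in response (0.71, adjusted p = 0.127) nor that with full NTBC (-0.52, adjusted p = 0.101) was called. The second, dimmer probe was above background on 0 of 4 arrays of either genotype with full NTBC, on 2 of 4 Fah-/- p53-/- and 1 of 4 Fah-/- arrays with reduced NTBC and on 3 and 4 of 4 without NTBC, so it gives no measured difference from full NTBC. Without NTBC, Bmp6 differed between Fah-/- p53-/- and Fah-/- livers by -0.66 (adjusted p = 0.0396), a call that was lost with a term for sex (adjusted p = 0.517), with slide as a fixed block (0.0879) and within the shared slide (0.359), and without any 1 of 7 of the 8 arrays (0.0518 to 0.12).

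Id1, which encodes an inhibitor of basic helix-loop-helix factors and is induced by BMP signalling, rose at both lower doses. In Fah-/- livers it read 2.45, 2.14, 1.43 and 2.55 without NTBC, 1.99, 1.29, 1.51 and 2.17 with reduced NTBC, and 1.0, 0.28, 0.16 and 0.31 with full NTBC. Both lower doses lay above full NTBC on every array and overlapped each other. The rise was 3.27-fold without NTBC (adjusted p = 1.95e-05) and 1.30 on the log2 scale with reduced NTBC (adjusted p = 0.00125). Id1 in Fah-/- p53-/- livers read 2.53, 1.83, 1.98 and 1.78, then 1.21, 2.67, 1.30 and 1.78, then 0.66, -0.02, 0.60 and 0.97 without, with reduced and with full NTBC. That was 2.79-fold higher without NTBC (adjusted p = 0.000113) and 1.19 higher with reduced NTBC (adjusted p = 0.00272). The Fah-/- p21-/- arrays, at 2.72 to 3.02, all exceeded the 4 Fah-/- arrays without NTBC, a difference that was not called. Id1 and Bmp6 both rose without NTBC, and with reduced NTBC in Fah-/- livers Id1 rose while Bmp6 was not called by its brighter probe. Hamp was called higher in none of these comparisons under the main scaling.

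Trf encodes transferrin, the plasma iron carrier that hepatocytes secrete. Its average in Fah-/- livers was 7.57 ± 0.11 without NTBC, 8.41 ± 0.08 with reduced NTBC and 8.97 ± 0.06 with full NTBC (SD, n = 4 each), with no overlap. The averages in Fah-/- p53-/- livers were 7.0 ± 0.08, 8.18 ± 0.17 and 8.64 ± 0.22 in the same order. Trf fell 2.63-fold (adjusted p = 3.91e-11) and 3.12-fold (adjusted p = 2.42e-12) without NTBC in these genotypes. Under quantile normalization the fall in Fah-/- livers was -0.25 and did not pass (adjusted p = 0.063). The falls with reduced NTBC were -0.56 (adjusted p = 0.000161) and -0.45 (adjusted p = 0.00128). The first was lost under normexp (-0.54, adjusted p = 0.0622), quantile normalization (-0.09, 0.58) and in the deposited values (-0.15, 0.373), and the second read 0.14 under normexp, 0.00 under quantile normalization and 0.09 in the deposited values. Loss of p53 went with less Trf with full NTBC (-0.33, adjusted p = 0.0318) and without NTBC (-0.58, adjusted p = 0.000736), and without NTBC this was not called with a term for sex (adjusted p = 0.129), with slide as a fixed block (0.0561) or within the shared slide (0.239). With full NTBC it was lost under quantile normalization (-0.12, adjusted p = 0.577) and in the deposited values (-0.27, adjusted p = 0.186), though not under normexp (-0.86, adjusted p = 0.00421), and without replicate 1, 2 or 4 of the Fah-/- or replicate 1 or 4 of the Fah-/- p53-/- group (adjusted p = 0.0524 to 0.134).

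Fth1, the heavy subunit of ferritin that oxidises iron for storage, had a direction that depended on the scaling. On the scale of the 75th percentile it read 8.41, 8.42, 8.10 and 8.41 in Fah-/- livers without NTBC and averaged 9.52 ± 0.07 with reduced and 9.30 ± 0.10 with full NTBC (SD, n = 4). The difference without NTBC was -0.96 (adjusted p = 6.67e-09), and -0.85 in Fah-/- p53-/- livers (adjusted p = 4.61e-08, and -0.39, adjusted p = 0.136, under normexp). Under quantile normalization the same comparisons read 0.45 (adjusted p = 0.0035) and 0.53 (adjusted p = 0.000737), and in the deposited values 0.26 (adjusted p = 0.101) and 0.52 (adjusted p = 0.00222). By rank, Fth1 moved toward the bright end: its median rank in Fah-/- livers was 20.5 without, 14.5 with reduced and 45.5 with full NTBC, and in Fah-/- p53-/- livers 11.5, 14 and 32. With reduced NTBC it was 0.22 and 0.15 above full NTBC and not called, but was called under quantile normalization (0.72 and 0.48, adjusted p = 0.00012 and 0.00529).

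**Figure D3:**
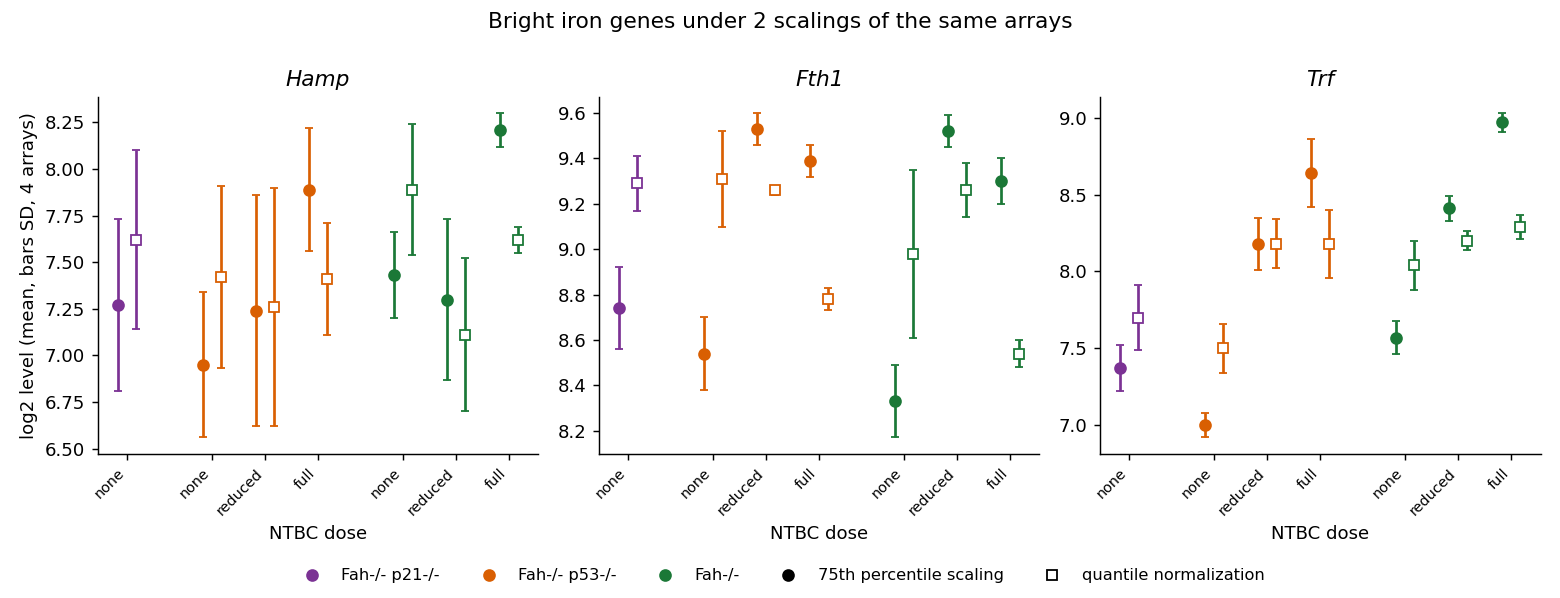
Mean level and SD over 4 arrays of Hamp, Fth1 and Trf in each group under scaling to the 75th percentile (circles) and under quantile normalization (squares), in log2 units. Fth1 without NTBC lies below full NTBC with circles and above it with squares, Hamp below it with circles and level with or above it with squares, and Trf below it with both.

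Slc40a1, the exporter that hepcidin removes from the cell surface, showed little change in its transcript. Group means lay between 4.30 and 4.88. Without against with full NTBC it differed by 0.30 (adjusted p = 0.143) in Fah-/- and 0.14 (adjusted p = 0.501) in Fah-/- p53-/- livers, but under quantile normalization both were called higher, at 0.87 (adjusted p = 0.000351) and 0.62 (adjusted p = 0.00658). With reduced NTBC it was called higher in Fah-/- p53-/- livers (0.54, adjusted p = 0.0187), but not without replicate 3 of the full group or replicate 2 or 3 of the reduced group (adjusted p = 0.0599 to 0.0885). Without replicate 3 of the Fah-/- group without NTBC, that group was called higher than full NTBC (0.44, adjusted p = 0.0338).

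Counted over the 10 genes, 9 were called without against with full NTBC in Fah-/- livers, 3 higher and 6 lower, where 70.9% of all features were called, 29.3% higher and 41.6% lower. The Fah-/- p53-/- livers again had 3 higher and 6 lower, where 69.7% of all features were called, 29.6% higher and 40.1% lower. With reduced against full NTBC 6 were called in Fah-/- livers, 2 higher and 4 lower, where 39.8% of all were called, 17.4% higher and 22.3% lower. The count in Fah-/- p53-/- livers was 7, 4 higher and 3 lower, where 39.8% of all were called, 20.3% higher and 19.5% lower. Without against with reduced NTBC 6 were called in Fah-/- livers, 2 higher and 4 lower (64.3% of all features, 26.1% higher and 38.1% lower), and 5 in Fah-/- p53-/- livers, 1 higher and 4 lower (61.3%, 23.2% higher and 38.1% lower). These comparisons share arrays. Read against that background, the counts show little by themselves. The median change without against with full NTBC was -0.56 in Fah-/- and -0.59 in Fah-/- p53-/- livers over the 10 genes, and -0.17 and -0.14 over all features.

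The scaling also moved the median of all features. Without against with full NTBC in Fah-/- livers it was -0.17 on the main scale, -0.40 under normexp, 0.01 under quantile normalization and 0.00 in the deposited values. Under normexp the share of calls that were higher changed by over 10 percentage points in several comparisons, as to 30.9% where the main scale gave 41.4% (none against full, Fah-/-), to 32.2% against 42.5% (none against full, Fah-/- p53-/-), to 24.6% against 50.9% (reduced against full, Fah-/- p53-/-), to 22.4% against 45.5% (p53 loss, full NTBC), to 51.4% against 62.9% (p53 loss, reduced NTBC) and to 75.6% against 64.9% (genotype difference in the response to reduced NTBC). In the deposited values it was 48.6% against 37.8% for none against reduced NTBC in Fah-/- p53-/- livers.

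**Figure D4:**
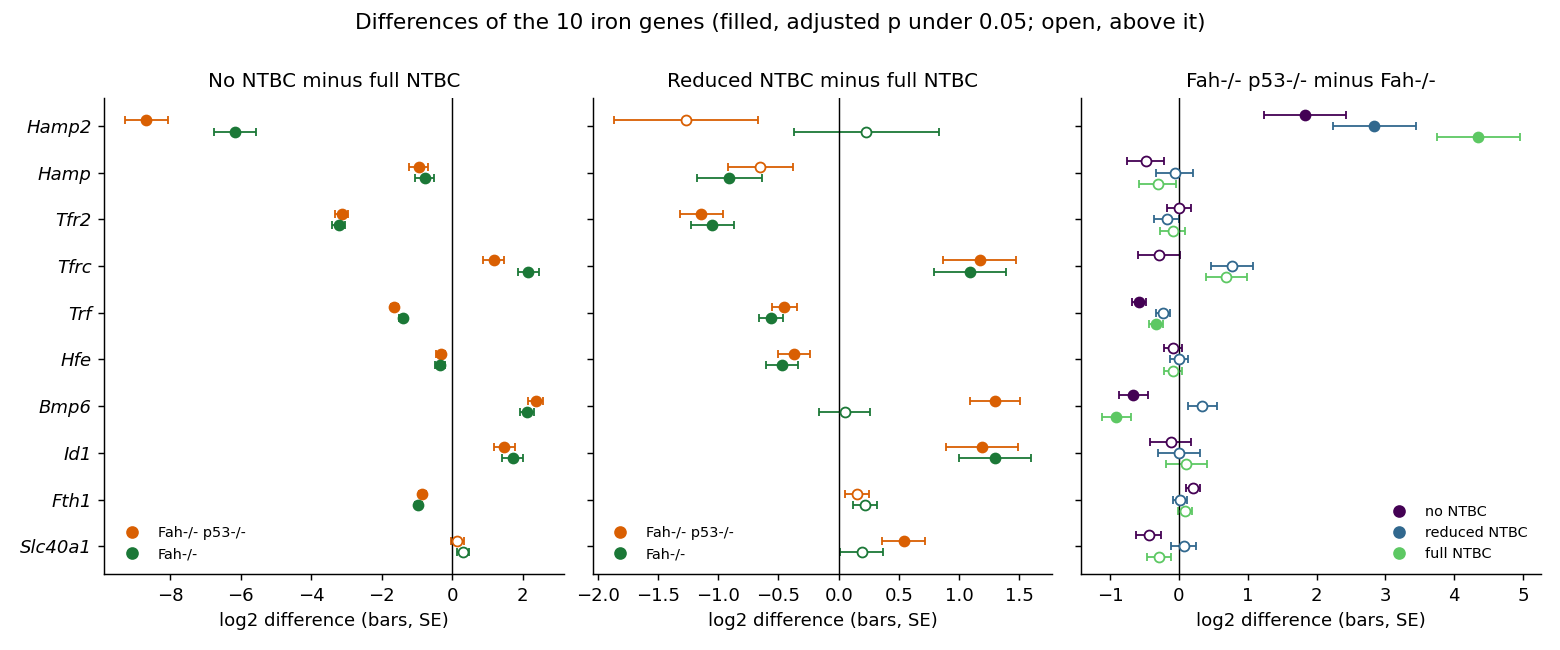
Log2 differences of the 10 genes from the limma fit with their SE, filled where the adjusted p is under 0.05: without against with full NTBC (left), reduced against full NTBC (middle), both by genotype, and Fah-/- p53-/- against Fah-/- at each dose (right). Hamp2 without NTBC lies at -6.16 and -8.67, and in the p53 panel Hamp2 reaches 4.35 with full NTBC while no other gene passes 1 in either direction. The signs for Hamp and Fth1 without NTBC turn under quantile scaling.

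Some of the 10 genes were called between Fah-/- p53-/- and Fah-/- livers at each dose. These groups also differed in slide with NTBC and in sex without it. With full NTBC 3 were called, Hamp2 higher and Trf and Bmp6 lower, where 13.9% of all features were called, 6.34% higher and 7.59% lower. With reduced NTBC only Hamp2 was called, where 15.6% of all features were, 9.85% higher and 5.8% lower. Without NTBC it was again Hamp2 higher and Trf and Bmp6 lower, where 14.2% of all features were called, 7.65% higher and 6.6% lower. With each array left out in turn the Trf call without NTBC was kept, and those of Hamp2 and Bmp6 were each lost in 7 of 8 cases. Without replicate 1 of the Fah-/- p53-/- group with full NTBC Tfrc was called higher there (0.95, adjusted p = 0.0487), and without replicate 3 of the Fah-/- group without NTBC Slc40a1 was called lower there (-0.59, adjusted p = 0.0406). The interaction of genotype with reduced NTBC was called for Bmp6 alone, upward (10.4% of all features, 6.74% higher and 3.64% lower). That with no NTBC was called for 0 of the 10 by limma (9.11% of all features, 4.86% higher and 4.25% lower), with Hamp2 the closest.

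Loss of p21 without NTBC gave 2 calls, where 7.53% of all features were called, 3.94% higher and 3.59% lower. Fth1 read 8.92, 8.77, 8.78 and 8.50 in Fah-/- p21-/- livers and 8.41, 8.42, 8.10 and 8.41 in Fah-/- livers, with no overlap and a difference of 0.41 (adjusted p = 0.0121). Slc40a1 read 4.01, 4.15, 4.49 and 4.56 in Fah-/- p21-/- livers and 4.95, 5.27, 4.44 and 4.86 in Fah-/- livers, an overlapping difference of -0.58 (adjusted p = 0.0487). Between male arrays alone these differences were 0.30 (adjusted p = 0.131) and -0.36 (adjusted p = 0.412), so neither was called. The Slc40a1 call was also lost without any 1 of 6 of the 8 arrays (adjusted p = 0.0508 to 0.17).

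Other genes of hepcidin control were read from lists. The counts of each list stand beside the share of all features called: without against with full NTBC, 29.3% of all features were higher and 41.6% lower in Fah-/- livers, and 29.6% and 40.1% in Fah-/- p53-/- livers. Without NTBC the Fah-/- arrays read as male, and all Fah-/- p53-/- and 2 of 4 Fah-/- p21-/- arrays as female. Differences of listed genes between these groups are given without a term for sex. Over all features, such a term took calls without NTBC from 14.2% to 1.36% on p53 loss. On p21 loss it took them from 7.53% to 2.68%. Of 16 tested genes of the BMP and SMAD branch, 4 rose and 6 fell without against with full NTBC in Fah-/- livers, and again 4 and 6 in Fah-/- p53-/- livers. Tmprss6, the hepatocyte protease that cleaves hemojuvelin and so restrains hepcidin, fell by 2.16 ± 0.15 (SE, adjusted p = 1.94e-11) and by 2.45 ± 0.15 (adjusted p = 2.11e-12), calls that held under all 3 other scalings. Neo1, the receptor neogenin that binds hemojuvelin, rose by 1.57 and 1.55, and the type I receptor Acvr1 by 0.57 and 0.62. Bmp7, another ligand of the family, fell by 2.40 and by 1.17, and was 2.68 higher in Fah-/- p53-/- than in Fah-/- livers without NTBC (adjusted p = 3.46e-05). Hjv itself, which encodes hemojuvelin, read lower on p53 loss with full NTBC (-0.62, adjusted p = 0.0446), a call lost under each of the 3 other scalings.

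The 6 further SMAD targets did not follow Id1 without NTBC in Fah-/- livers, where 0 were called (70.9% of all features, 29.3% higher). With reduced NTBC 2 of 6 rose there, where 17.4% of all features did: Atoh8 by 0.73 and Smad7, an inhibitor of the same pathway, by 0.64. In Fah-/- p53-/- livers 4 of 6 rose with reduced NTBC (20.3% of all features), among them Atoh8 (0.96), Id2 (0.84) and Smad7 (0.80). Without NTBC 3 of 6 rose there (29.6% of all features), among them Id2 (1.02) and Smad7 (0.71). With full NTBC 3 of 6 were lower in Fah-/- p53-/- than in Fah-/- livers (7.59% of all features), among them Id2 (-0.94, adjusted p = 0.00175) and Atoh8 (-0.84, adjusted p = 0.0288, and 0.101 under normexp). Smad9, a dim gene that is the remaining gene in each of these last 3 counts, had the opposite sign under normexp (-1.03, -0.55 and 0.39).

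Of 11 genes of the inflammatory branch, 4 rose and 6 fell without against with full NTBC in Fah-/- livers, and 5 rose and 3 fell in Fah-/- p53-/- livers, against the same 29.3% and 41.6%, and 29.6% and 40.1%, of all features. Inhbb, a subunit of activin B that can induce hepcidin in mouse liver, rose by 2.64 (adjusted p = 3.11e-08) and 3.42 (adjusted p = 4.12e-10). Jak2, a kinase of interleukin-6 signalling, rose by 1.27 and 1.24, whereas Stat3, a factor activated in that signalling, fell by 0.90 and by 1.32. Creb3l3, a hepatocyte factor that binds the hepcidin promoter under endoplasmic reticulum stress, fell by 1.05 in Fah-/- livers (adjusted p = 5.81e-08). Socs3, which shuts off the interleukin-6 signal, fell by 2.12 with reduced NTBC in Fah-/- livers (adjusted p = 3.01e-05). The probe for Il6, one of those called lower, was above background on 1 and 0 arrays of the Fah-/- groups without and with full NTBC, and on 0 and 2 arrays of the Fah-/- p53-/- groups, and no fold is given.

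Among 15 genes of iron, heme and hemoglobin uptake, 4 rose and 7 fell without against with full NTBC in Fah-/- livers, and 6 rose and 5 fell in Fah-/- p53-/- livers, beside the same shares of all features. Lcn2, the siderophore-binding lipocalin, rose by 3.41 (adjusted p = 4.01e-06) and 1.77 (adjusted p = 0.00463). Lrp1, a receptor for heme bound to hemopexin, fell by 1.71 and by 1.34, and Slc46a1, a heme and folate carrier, by 1.24 and by 1.45. Hpx, which encodes hemopexin, fell by 2.02 in Fah-/- p53-/- livers (adjusted p = 7.66e-12), while its fall of 1.13 in Fah-/- livers read 0.25 under quantile normalization and 0.31 in the deposited values. Slc39a14, an importer of iron that is not bound to transferrin, fell by 1.51 in Fah-/- p53-/- livers and was lower than in Fah-/- livers without NTBC in Fah-/- p53-/- (-0.71, adjusted p = 0.000804) and Fah-/- p21-/- livers (-0.78, adjusted p = 0.000729, and 0.0611 under normexp). In the same Fah-/- p21-/- and Fah-/- p53-/- livers Cd163, the macrophage receptor for hemoglobin bound to haptoglobin, was 1.33 and 1.36 higher than in Fah-/- livers. These genotype differences without NTBC are also between arrays of different sex, in part for Fah-/- p21-/- livers.

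Of 6 genes of iron export and oxidation other than Slc40a1, 2 rose and 1 fell without against with full NTBC in each genotype. Of all features 29.3% rose and 41.6% fell in Fah-/- livers, and 29.6% and 40.1% in Fah-/- p53-/- livers. Hmox1, the enzyme that frees iron from heme, rose by 3.42 ± 0.28 in Fah-/- and 2.59 ± 0.28 in Fah-/- p53-/- livers (SE), and was 1.44 higher in Fah-/- p21-/- than in Fah-/- livers (adjusted p = 0.00315). Flvcr1, a heme exporter, rose by 3.30 (adjusted p = 3.25e-11) and 2.64 (adjusted p = 1.1e-09). Cp, the plasma ferroxidase ceruloplasmin, fell by 0.87 and by 0.93, but read 0.02 and -0.06 under quantile normalization. Of 5 storage genes, Ncoa4, the receptor that delivers ferritin to lysosomes, rose by 0.60 and 0.75, and Ftl1, the light subunit, fell on p53 loss with full NTBC (-1.07, adjusted p = 0.00449). The storage list held 1 rise and 2 falls in Fah-/- and 1 rise and 1 fall in Fah-/- p53-/- livers, beside the same shares of all features.

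The iron regulatory list of 5 genes held 2 rises and 3 falls in Fah-/- and 2 rises and 2 falls in Fah-/- p53-/- livers without NTBC. The shares of all features were again 29.3% higher and 41.6% lower, and 29.6% and 40.1%. Ireb2, which encodes an iron regulatory protein that stabilises Tfrc transcripts, fell by 0.74 in Fah-/- livers (adjusted p = 0.000143). Its fall in Fah-/- p53-/- livers was 0.37 (adjusted p = 0.0339). Fbxl5, which marks that protein for breakdown, rose by 0.52 in each genotype. Hif1a rose by 0.83 and 1.51. Of 10 mitochondrial iron genes, 2 rose and 7 fell in each genotype without NTBC, beside the same shares of all features. Abcb10, a transporter needed for heme synthesis, fell by 1.66 (adjusted p = 4.47e-12) and by 0.92. Slc25a37, which imports iron into mitochondria, fell by 0.80 and by 1.12.

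Markers of other cells were read in the same comparisons. Without against with full NTBC, 29.3% of all features were higher and 41.6% lower in Fah-/- livers. In Fah-/- p53-/- livers 29.6% were higher and 40.1% lower. In bulk liver RNA, fewer cells of a type and less RNA per cell cannot be told apart. All 7 tested erythroid markers were called lower without against with full NTBC in both genotypes. Among them Alas2, the enzyme that starts heme synthesis in erythroid cells, fell by 5.06 and by 4.22. Their summed signal, in multiples of the array's 75th percentile, lay between 18.5 and 78.4 without NTBC, 74.4 and 147 with reduced and 141 and 159 with full NTBC in Fah-/- livers. In Fah-/- p53-/- livers it lay between 7.50 and 16.8 without, 87.9 and 136 with reduced and 185 and 259 with full NTBC, and in Fah-/- p21-/- livers between 4.66 and 69.3. Gata1 and Rhag were not above background on any array without NTBC, and Gata1, though called, was not so with full NTBC either. Under quantile normalization and in the deposited values 5 and 4 of the 7 were still lower in Fah-/- livers. Erythroid precursors carry much Tfrc, and their part in the level of Tfrc was not tested.

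Kupffer cell and macrophage markers, which mark cells rich in Slc40a1 and Hmox1, went the other way. Without against with full NTBC 10 of 10 rose in Fah-/- and 8 of 10 in Fah-/- p53-/- livers, among them Cd68 (1.89 and 2.06) and Vsig4 (1.47 and 2.46). Of all features 29.3% and 29.6% rose. Their summed signal lay between 81.5 and 368 without NTBC, 41.3 and 60.6 with reduced and 42 and 70.2 with full NTBC in Fah-/- livers. The ranges in Fah-/- p53-/- livers were 111 to 197, 47.3 to 81 and 41.7 to 75 in the same order, and in Fah-/- p21-/- livers 65.9 to 205. Of 9 tested hepatocyte markers 8 fell in Fah-/- and 9 in Fah-/- p53-/- livers without NTBC (6 and 7 under quantile normalization), and their summed signal was 1120 to 1360 without against 3640 to 4470 with full NTBC in Fah-/- livers. Alb, the most familiar of them, fell by 1.80, but by only 0.15 under quantile normalization (adjusted p = 0.053). Endothelial markers, which mark the main source of BMP6, were mixed: 4 rose and 2 fell in Fah-/- and 0 rose and 4 fell in Fah-/- p53-/- livers, and their sums overlapped between no NTBC (68.7 to 83.5) and full NTBC (62.6 to 78.5) in Fah-/- livers.

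Cholangiocyte markers were also higher without against with full NTBC, in 4 of 5 tested in Fah-/- and 3 of 5 in Fah-/- p53-/- livers. The shares of all features that rose were 29.3% and 29.6%. Krt19, a keratin of bile duct cells, rose by 1.22 and 2.74, whereas Epcam, called at 1.22 and 1.48, read -0.01 and -0.16 under normexp. The summed cholangiocyte signal in Fah-/- livers was 7.83 to 19.2 without NTBC and 4.44 to 7.2 with full NTBC. Of 8 stellate cell markers 2 and 3 rose, which is near those shares of all features. Among them were Acta2 (0.90 and 1.0) and Lrat (1.09 and 1.35). The stellate sums were 80.3 to 119 without and 69.8 to 78.7 with full NTBC in Fah-/- livers. Proliferation markers rose in 3 of 8 in Fah-/- and 6 of 8 in Fah-/- p53-/- livers, or in 0 and 4 under normexp. The count of 3 of 8 in Fah-/- livers was also near the share of all features. Cdk1, a kinase of dividing cells, was above background on only 2 and 3 of 4 arrays with full NTBC. Relative to Fah-/- livers, proliferation markers were also higher in Fah-/- p53-/- livers with reduced NTBC (7 of 8) and without NTBC (4 of 8), and in Fah-/- p21-/- livers (5 of 8). Of all features 9.85%, 7.65% and 3.94% were higher in these comparisons. The groups without NTBC also differed in sex. The part of all these cells in the results above was not tested.

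**Figure D5:**
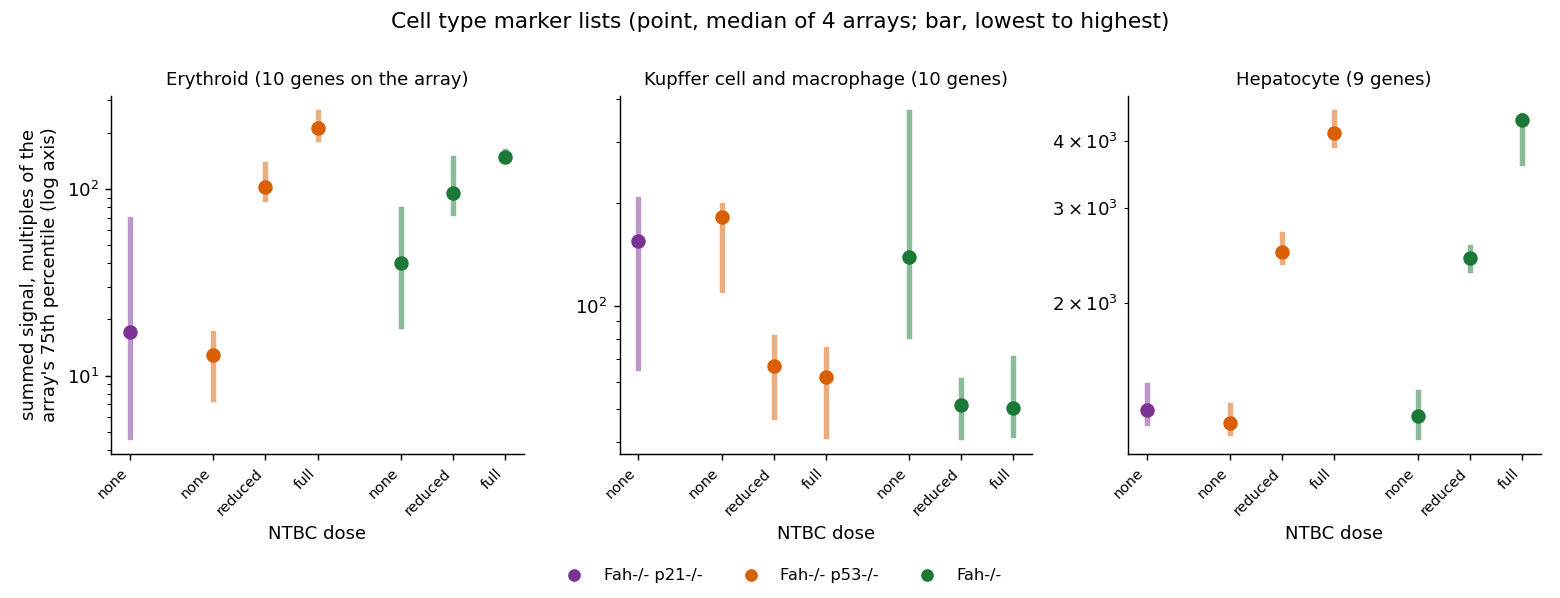
Summed signal of erythroid, Kupffer cell and hepatocyte markers by group, in multiples of the array's 75th percentile on a log axis, with the median of 4 arrays as a point and their range as a bar. Erythroid and hepatocyte sums are lowest and Kupffer cell sums highest in the groups without NTBC.

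The genes whose levels were most alike over all 28 arrays are given as a description, since the arrays fall into 7 groups and share scan years. Hamp had Pearson's r of 0.808 with Top3b, 0.80 with Rabggta and 0.798 with Fga, the alpha chain of fibrinogen. Tfrc had 0.931 with Fam72a, 0.921 with Dppa5a and 0.913 with Hus1. Bmp6 had 0.962 with Dhx8, 0.955 with Pon2 and 0.948 with Map2k1 and with Mrps23. Next came Egln3, a prolyl hydroxylase of the hypoxia response, at 0.947.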

How the data were processed

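RNA was amplified and labelled with Cy3, per the labels' protocols. The deposited scanner files hold a processed intensity per spot, background-subtracted and not scaled between arrays, per the file headers (Agilent Feature Extraction 10.7.3.1, while the submitters' processing notes give 10.5). The authors' deposited table of values is in log2 units. Its array medians of 6.8905 to 6.9117 show that the authors scaled the arrays to each other, with software that the sources used here do not name. Its direction follows the scanner values (correlation 0.917 to 0.9598 per array).

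The intensities of 43379 spots were averaged on the log2 scale to 41174 probes and scaled to each array's 75th percentile, which was 251.8 to 578.06 before scaling. The 27509 probes that were well above background on every array of some group were kept, and the brightest probe stood for a gene, leaving 20303 features. R 4.3.3 and limma 3.58.1 fitted 1 mean per group with 21 residual degrees of freedom, and p-values were adjusted over all features. The number of arrays, 4 per group, limits the precision. The script was tested on simulated data.

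The 10 genes and all lists were chosen with earlier results of these data known. Members are named throughout. Of the other lists, up to 4 called members with the largest change per comparison could be named, and fewer are, chosen after values were seen. Normexp (offset 50) used median spot signals, since mean ones are not among the columns here. Further alternatives were quantile normalization, the deposited values, other filters, blocks for replicate number and slide, and each array left out. A term for sex, male arrays alone and leaving out the 3 farthest arrays were added after seeing the data. Some genes of these lists are withheld and not named here.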

Additional observations from a re-analysis of the deposited data

Results flagged for a closer look

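Among the 70 combinations of gene and group, 3 had an array far from the other 3 of its group, where chance flags about 1 in 20. Hamp2 read -2.13 on replicate 1 of the Fah-/- p53-/- livers without NTBC, and the next array read 0.66. Tfr2 read 3.51 on that same array, and the next read 2.87. This array was also the farthest from its group over all features. Fth1 read 8.10 on replicate 3 of the Fah-/- livers without NTBC, against 8.41 on the next.

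The response of Bmp6 to reduced NTBC differed between Fah-/- p53-/- and Fah-/- livers by 1.25 in the test of that difference (limma, adjusted p = 0.0106); it was not called under normexp (0.07) or with the mean of the gene's probes (0.71).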

How the results depend on the processing

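Counts of the 10 genes called changed by over 1.5 times in these settings. Under normexp they were 3 (main 6) for reduced against full NTBC in Fah-/- and 4 (main 7) in Fah-/- p53-/- livers, 1 (main 3) for p53 loss without NTBC, 0 (main 2) for p21 loss and 0 (main 1) for the genotype difference in the response to reduced NTBC, which was also 0 with the mean of a gene's probes. For p21 loss 1 remained under quantile normalization, the deposited values, no filter and slide as a random block, and 0 with the groups alone, slide as a fixed block, the shared slide, a term for sex, male arrays only and without the 3 farthest arrays. For p53 loss without NTBC 1 was called with no filter, and 0 with slide as a fixed block, within the shared slide and with a term for sex. The difference in the response to no NTBC had 1 call in the deposited values and 1 with the replicate block (main 0), that of Hamp2 (-2.51, adjusted p = 0.0275). The replicate numbers did not pair the samples (correlations of deviations -0.226 to 0.356). With each array left out in turn the counts were 8 to 10 and 8 to 9 (none against full, Fah-/- and Fah-/- p53-/-), 6 to 6 and 5 to 8 (reduced against full), 6 to 6 and 5 to 6 (none against reduced), 2 to 3, 1 to 1 and 1 to 2 (p53 loss with full, reduced and no NTBC), 1 to 2 (p21 loss), and 1 to 1 and 0 to 1 (genotype differences). Signs of called differences turned under normexp for Trf (0.14), Bmp6 (-0.06) and Hfe (0.04), all reduced against full NTBC in Fah-/- p53-/- livers. They also turned for Hfe there without NTBC (0.01) and for Bmp6 on p53 loss with full NTBC (0.10). They turned under quantile normalization and in the deposited values for Hamp without against with full NTBC (0.28 and 0.24 in Fah-/-, 0.01 and 0.13 in Fah-/- p53-/-), for Fth1 (0.45 and 0.26, 0.53 and 0.52) and for Trf with reduced NTBC in Fah-/- p53-/- livers (0.00 and 0.09), and for Fth1 without against with reduced NTBC there under quantile normalization (0.06). The cause was not tested.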
